A study of Danio rerio with 32 samples.

Results

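The cholesterol synthesis genes described here were 10 rows of a gene count table from whole zebrafish larvae, 10 of 16825 rows in all. They were the rows whose gene identifier maps to one of 10 listed symbols: hmgcs1, hmgcra, idi1, fdps, sqlea, lss, cyp51, msmo1 and dhcr7, which encode enzymes of the pathway, and ldlra, which encodes a receptor that takes up lipoprotein cholesterol. The rule itself used symbols and no measured value, but the list was drawn up with earlier results of these data known. All 10 were found in the table.

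Animal cells build cholesterol from acetyl-CoA by way of mevalonate, the isoprenoid units, squalene and lanosterol, and the liver is a main site of this synthesis. In mammals the genes for the enzymes and for the LDL receptor are switched on together by SREBP2, a membrane-bound transcription factor that SCAP carries out of the endoplasmic reticulum when sterol is low and that INSIG proteins hold back when sterol is high. The pathway's rate is known to be set mainly at HMG-CoA reductase, and cells that lack sterol also raise uptake through the LDL receptor.

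The study asked how Keap1, the repressor of the stress-response factor Nrf2, acts in developing larvae, and whether Nrf2 and the repressor Bach1 take part. Each of 8 groups held 4 libraries, and each library came from a pool of 10 whole larvae at 7 days post fertilization, sequenced with a kit that reads the 3′ ends of messenger RNA. The groups were crkeap1a/b in a Bach1 double knockout (labelled crkeap1a/b; Bach1 DKO and written here as Bach1 DKO crkeap1a/b), Bach1 DKO, crkeap1a/b in an Nrf2 knockout (Nrf2 KO crkeap1a/b), Nrf2 KO, crkeap1a/b, crkeap1a, crkeap1b and wild type (WT). The prefix cr marks a crispant, a larva grown from an embryo injected at the one-cell stage with Cas9 and guides against keap1a, keap1b or both. Editing in such larvae is mosaic, so a pool mixes edited and unedited cells. The Bach1 DKO line carries mutations in bach1a and bach1b, and the Nrf2 KO line carries the fh318 allele of nfe2l2a. The paper states that the Bach1 DKO line was made in fish carrying reporter transgenes. By its account the crkeap1a, crkeap1b and crkeap1a/b crispants were also first made in a reporter line, gstp1:EGFP. The effect of a mutation cannot be told apart here from other differences between its line and the other larvae. The study's methods describe controls as siblings from the clutch, but no label ties a pool to a clutch, batch or date, so the groups could not be compared within one.

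Library totals lay between 3464165 and 4712448 counts, and levels are given as counts per 1000000 library counts (CPM) after scaling of library sizes by trimmed mean of M values. Differences between groups are log2 fold changes ± SE from 1 limma-voom fit over all 32 libraries, and a gene was called at a Benjamini-Hochberg adjusted p under 0.05 over the 14660 rows tested. Transcript levels of the edited genes did not check the labels, because 3′ reads do not show whether a transcript carries an edit. Pools 2 and 3 of crkeap1a and pools 1, 3 and 4 of crkeap1b lay apart from the other libraries on the first principal component, which held 22.9% of the variance, and member calls on these groups are also given without them. The 4 Bach1 DKO crkeap1a/b pools lay apart at the opposite end of that component, at 51.3 to 59.4, with the next library, Bach1 DKO replicate 4, at 28.8. Marker genes of liver, exocrine pancreas, skeletal muscle, neurons, enterocytes, glia and skin were all detected in every group.

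The main pattern was a rise in Bach1 DKO crkeap1a/b larvae that part of the members shared. Of the 7 members with enough counts to test, 4 rose in Bach1 DKO crkeap1a/b larvae against Bach1 DKO larvae (background: 13.5% of all rows tested were called higher) and 1, dhcr7, fell (background: 11.2% called lower). Those that rose were hmgcs1, idi1, fdps and cyp51, while hmgcra (-0.62 ± 0.29) and ldlra (-0.10 ± 0.16) were not called. Against crkeap1a/b larvae, which carry the same edits with bach1a and bach1b intact, 6 of the 7 were called higher (background: 15.8% higher, 14.0% lower). The other, hmgcra, was also higher but entered the fit only through the Bach1 DKO groups, so it is not counted with them. Of the 6, dhcr7 (limma-voom adjusted p = 0.0484) and ldlra (adjusted p = 0.0499) lay close to the threshold. Neither was called by edgeR (adjusted p = 0.0503 and 0.0668), and DESeq2 did not call ldlra (adjusted p = 0.0526). The remaining members, sqlea, lss and msmo1, had too few counts to enter the fit. By plain comparison of pools, all 4 Bach1 DKO crkeap1a/b pools lay above all 4 crkeap1a/b pools for each of the 10 members, as they did for 16.2% of all rows with counts. For sqlea, fdps and ldlra this rested on library scaling. The lowest Bach1 DKO crkeap1a/b pool and the highest crkeap1a/b pool both held 4 counts for sqlea (0.828 and 0.819 CPM) and 63 for fdps (13.43 and 12.9 CPM). For ldlra these pools had 17.27 and 17.21 CPM, and Bach1 DKO crkeap1a/b replicate 4 held 77 counts against 80 in crkeap1a/b replicate 1. Against Bach1 DKO larvae the pools lay apart for 6 members (30.5% of all rows), upwards for 5 of them (15.5% of all rows) and downwards for dhcr7. Without hmgcra, the median log2 fold change of the 6 other tested members was 0.79 against Bach1 DKO and 0.76 against crkeap1a/b, beside medians over all rows of -0.05 and 0.00. Summed over the 10 genes, levels were 129 ± 11.9 CPM in Bach1 DKO crkeap1a/b pools, 111 ± 8.25 CPM in Bach1 DKO pools, 92.5 ± 8.03 CPM in Nrf2 KO crkeap1a/b pools, 82.8 ± 10.7 CPM in Nrf2 KO pools, 72.4 ± 7.15 CPM in crkeap1a/b pools, 102.2 ± 15.8 CPM in crkeap1a pools, 101.8 ± 15.4 CPM in crkeap1b pools and 84.7 ± 7.14 CPM in WT pools (SD, n = 4 each). These comparisons share the Bach1 DKO crkeap1a/b pools and so are not separate lines of evidence.

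**Figure D1:**
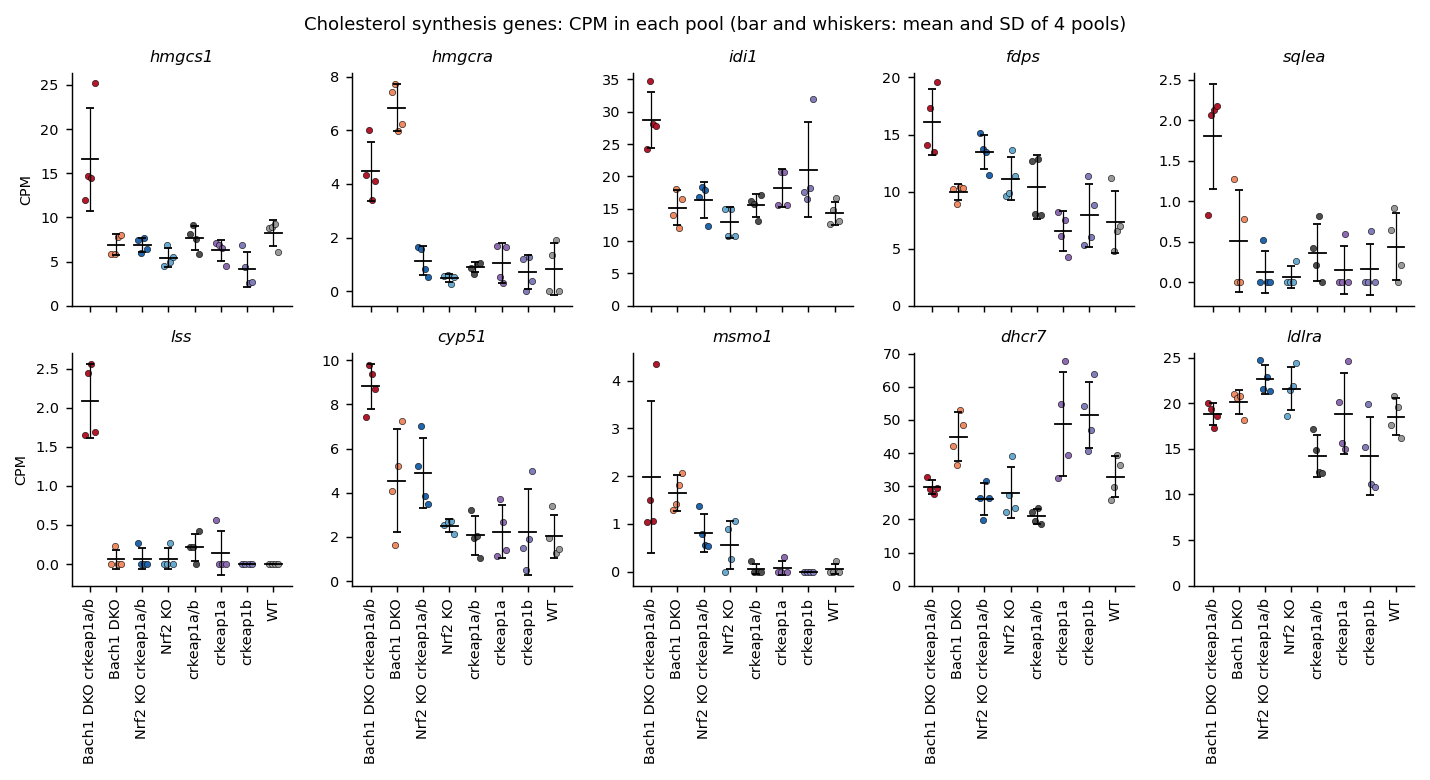
Level of each of the 10 genes in CPM (vertical axis) in each pool, by group (horizontal axis). Points are pools of 10 larvae, and the bar and whiskers are the mean and SD of 4 pools. The Bach1 DKO crkeap1a/b mean is the highest for hmgcs1, idi1, fdps, sqlea, lss, cyp51 and msmo1, hmgcra is high in both Bach1 DKO groups, and dhcr7 and ldlra follow other orders.

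The pathway's entry showed different patterns in its first steps. hmgcs1 encodes the synthase that makes HMG-CoA. Its level was 12, 14.7, 14.5 and 25.2 CPM in Bach1 DKO crkeap1a/b pools, 5.89, 5.86, 7.81 and 8.03 CPM in Bach1 DKO pools, 8.18, 9.16, 7.58 and 5.85 CPM in crkeap1a/b pools, and 8.81, 8.90, 9.26 and 6.12 CPM in WT pools. Every pool with both changes exceeded every pool of the other 3 groups, and the other groups overlapped. The Nrf2 KO crkeap1a/b, Nrf2 KO, crkeap1a and crkeap1b pools lay between 2.55 and 7.72 CPM. Against Bach1 DKO the log2 fold change was 1.19 ± 0.22 (limma-voom adjusted p = 0.000102), and against crkeap1a/b it was 1.04 ± 0.21 (adjusted p = 0.00023). Across every alternative setting and every single pool left out, the log2 fold change against Bach1 DKO stayed between 1.02 and 1.35, and it was called each time. Neither change alone moved the gene past the threshold: Bach1 DKO differed from WT by -0.26 ± 0.24 (adjusted p = 0.479) and crkeap1a/b by -0.105 ± 0.23 (adjusted p = 0.865). The test of the difference in crkeap1a/b effect between the Bach1 DKO and intact backgrounds gave 1.30 ± 0.32 (adjusted p = 0.019), and 1.19 without crkeap1a/b replicate 4 (adjusted p = 0.054).

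hmgcra encodes HMG-CoA reductase, the step that sets the pathway's rate, and it was high in both Bach1 DKO groups. It had 4.34, 6.01, 3.41 and 4.12 CPM in Bach1 DKO crkeap1a/b pools and 7.43, 7.73, 5.99 and 6.22 CPM in Bach1 DKO pools, against 0.861, 0.654, 1.02 and 1.04 CPM in crkeap1a/b pools and 0, 1.37, 1.89 and 0 CPM in WT pools. Both Bach1 DKO groups lay wholly above the other groups, in which no pool exceeded 1.89 CPM. The levels rested on few counts: 109 counts over the 4 Bach1 DKO pools and 15 over the 4 WT pools, a ratio of CPM-scaled counts of 8.48 with a 95% counting interval of 4.92 to 15.7. The fitted log2 fold change of Bach1 DKO over WT was 4.04 ± 0.65 (limma-voom adjusted p = 2.45e-05). Other tools and settings put it between 3.03 and 4.17 and single left-out pools between 3.34 and 4.78, and it was called every time. Bach1 DKO crkeap1a/b exceeded crkeap1a/b by 2.19 ± 0.49 (adjusted p = 0.000928). Bach1 DKO crkeap1a/b and Bach1 DKO pools differed by -0.62 ± 0.29 (adjusted p = 0.122), a value called at adjusted p = 0.0415 with quality weights and 0.0494 in a fit to the 2 groups alone (range over all the alternatives 0.0415 to 0.299). hmgcra passed the filter on low counts only through the Bach1 DKO groups, so its call was bound up with that filter. Its paralog hmgcrb, named after values were seen, had 9.38 ± 2.82 CPM with both changes, 9.20 ± 1.72 CPM with Bach1 loss alone, 8.37 ± 2.34 CPM in crkeap1a/b pools and 6.31 ± 1.74 CPM in WT pools (SD, n = 4 each). Whether the paralogs shared reads was not tested.

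The isoprenoid steps rose in Bach1 DKO crkeap1a/b larvae over Bach1 DKO and over crkeap1a/b larvae. idi1 encodes the isomerase that interconverts the isoprenoid units. It had 24.2, 34.7, 28.1 and 27.8 CPM in Bach1 DKO crkeap1a/b pools, 14.1, 18.0, 11.98 and 16.6 CPM in Bach1 DKO pools, 16.1, 15.7, 13.1 and 17.1 CPM in crkeap1a/b pools and 12.7, 14.8, 16.6 and 13.1 CPM in WT pools. The first group lay above all pools of the other 3, which overlapped. The Nrf2 KO crkeap1a/b, Nrf2 KO and crkeap1a pools lay between 10.8 and 20.7 CPM, and crkeap1b replicate 4, at 31.9 CPM, reached into the range of the highest group. Its log2 fold change was 0.92 ± 0.18 against Bach1 DKO (adjusted p = 0.000161) and 0.88 ± 0.17 against crkeap1a/b (adjusted p = 0.000165), and both held under every alternative and every pool left out. fdps encodes farnesyl diphosphate synthase, whose product also feeds protein prenylation. It had 14.1, 17.3, 13.4 and 19.6 CPM in Bach1 DKO crkeap1a/b pools and 10.2, 8.90, 10.4 and 10.4 CPM in Bach1 DKO pools, with no overlap. Nrf2 KO crkeap1a/b pools, at 15.1, 13.8, 13.5 and 11.5 CPM, were nearly as high, and WT pools had 11.2, 4.79, 6.52 and 6.96 CPM. crkeap1a/b pools had 12.7, 8.07, 12.9 and 7.94 CPM, a log2 fold change of 0.515 ± 0.235 over WT (limma-voom adjusted p = 0.227). In Bach1 DKO crkeap1a/b over Bach1 DKO it was 0.67 ± 0.21 (adjusted p = 0.0192). This call was lost without Bach1 DKO replicate 2 (0.64, adjusted p = 0.05) and without Bach1 DKO crkeap1a/b replicate 4 (0.60, adjusted p = 0.0559, the highest among pools left out). Against crkeap1a/b it was 0.64 ± 0.20 (adjusted p = 0.016), lost without crkeap1a/b replicate 2 (adjusted p = 0.0652), crkeap1a/b replicate 4 (adjusted p = 0.075) or Bach1 DKO crkeap1a/b replicate 4 (adjusted p = 0.0583).

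The squalene and lanosterol steps had the fewest counts. sqlea encodes squalene epoxidase, the oxygen-using step before ring closure. It had 4, 11, 10 and 9 counts in the 4 Bach1 DKO crkeap1a/b pools, 5, 0, 0 and 3 counts in Bach1 DKO pools, 2, 1, 4 and 0 in crkeap1a/b pools and 3, 4, 0 and 1 in WT pools. The CPM ratio of the sums was 3.55 over Bach1 DKO (95% counting interval 1.62 to 8.89) and 4.84 over crkeap1a/b (2.11 to 12.9). In a fit without the filter on low counts it was called higher against crkeap1a/b (log2 fold change 2.30 ± 0.68, adjusted p = 0.011) and against Bach1 DKO (2.27 ± 0.70, adjusted p = 0.0176), although pools overlapped in the second. lss encodes lanosterol synthase, which closes the sterol rings. It had 8, 13, 12 and 7 counts in Bach1 DKO crkeap1a/b pools, 0, 1, 0 and 0 counts in Bach1 DKO pools, 1, 1, 0 and 2 counts in crkeap1a/b pools and no counts in WT pools. Only the group with both changes had more than 2 counts in any pool. The ratio was 33.5 over Bach1 DKO (5.67 to 1354) and 9.96 over crkeap1a/b (3.6 to 38.3). Without the filter, lss was called higher over Bach1 DKO (adjusted p = 6.02e-06) and over crkeap1a/b (adjusted p = 3.16e-05), and calls higher made up 11.8% and 14.1% of the 16822 rows in those fits.

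After lanosterol, the demethylation steps divided by genotype. cyp51 encodes lanosterol demethylase. It had 7.45, 9.77, 9.38 and 8.71 CPM in Bach1 DKO crkeap1a/b pools, 4.10, 1.64, 5.21 and 7.25 CPM in Bach1 DKO pools, 3.23, 1.96, 2.05 and 1.04 CPM in crkeap1a/b pools and 1.93, 3.42, 1.26 and 1.48 CPM in WT pools. The doubly changed pools exceeded all the others. The log2 fold change was 2.14 ± 0.39 over crkeap1a/b (adjusted p = 7.34e-05) and 1.14 ± 0.32 over Bach1 DKO (adjusted p = 0.00784). The second was lost without Bach1 DKO replicate 2 (0.72, adjusted p = 0.0776, the highest among pools left out) and with edgeR (0.96, adjusted p = 0.0508), and Bach1 DKO over WT, at 1.04 ± 0.44 (adjusted p = 0.0803), was called by edgeR, DESeq2 and quality weights. msmo1 encodes the oxidase that removes sterol methyl groups. It had 5, 8, 5 and 18 counts in Bach1 DKO crkeap1a/b pools, 5, 6, 7 and 8 counts in Bach1 DKO pools, 5, 3, 2 and 2 counts in Nrf2 KO crkeap1a/b pools, 1, 0, 0 and 0 counts in crkeap1a/b pools and 0, 0, 1 and 0 counts in WT pools. These first 3 groups lay above the crkeap1a/b and WT pools, while Nrf2 KO pools, with 0, 3, 1 and 4 counts, overlapped both. The ratio was 30.4 for Bach1 DKO over WT (95% counting interval 4.99 to 1244), and in a fit without the filter the gene was called higher there (log2 fold change 3.6 ± 0.68, adjusted p = 0.000218, 10.1% of rows called higher). Between the 2 Bach1 DKO groups the ratio was 1.158 (0.68 to 2.00).

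dhcr7, which reduces dehydrocholesterol to cholesterol, ran the other way between the Bach1 DKO groups. It had 32.9, 29.3, 27.7 and 29.5 CPM in Bach1 DKO crkeap1a/b pools against 42.0, 36.3, 53.1 and 48.5 CPM in Bach1 DKO pools, with no overlap. The log2 fold change was -0.57 ± 0.19 (adjusted p = 0.0216). It was lost without Bach1 DKO replicate 3 (-0.47, adjusted p = 0.0989) or 4 (adjusted p = 0.07) and without Bach1 DKO crkeap1a/b replicate 2 (adjusted p = 0.0584), 3 (adjusted p = 0.0677) or 4 (adjusted p = 0.0533). Over crkeap1a/b pools, at 22.4, 19.6, 23.3 and 18.6 CPM, it was higher by 0.51 ± 0.20 (adjusted p = 0.0484). That call ended under edgeR, without the filter, and without any single pool other than crkeap1a/b replicate 3 (adjusted p = 0.0536 to 0.119). WT pools had 25.8, 29.9, 39.3 and 36.5 CPM, and crkeap1a/b had the lowest group mean of all.

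ldlra, the receptor for lipoprotein uptake, was similar in the Bach1 DKO groups. Group means ran from 14.2 CPM in crkeap1a/b to 22.6 CPM in Nrf2 KO crkeap1a/b, and crkeap1b pools lay between 10.8 and 19.9 CPM. ldlra had 20.1, 19.3, 17.3 and 18.6 CPM in Bach1 DKO crkeap1a/b pools and 21.0, 20.6, 20.8 and 18.1 CPM in Bach1 DKO pools. These groups overlapped, with a log2 fold change of -0.10 ± 0.16 (adjusted p = 0.698). crkeap1a/b pools had 17.2, 14.8, 12.5 and 12.3 CPM, below all Bach1 DKO crkeap1a/b pools (0.42 ± 0.16, adjusted p = 0.0499). That call ended under 6 of the alternatives and without any single pool other than crkeap1a/b replicate 1 (up to adjusted p = 0.149). Nrf2 KO crkeap1a/b pools had 24.8, 21.5, 22.9 and 21.4 CPM, all above the crkeap1a/b pools (0.68 ± 0.17, adjusted p = 0.00227).

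**Figure D2:**
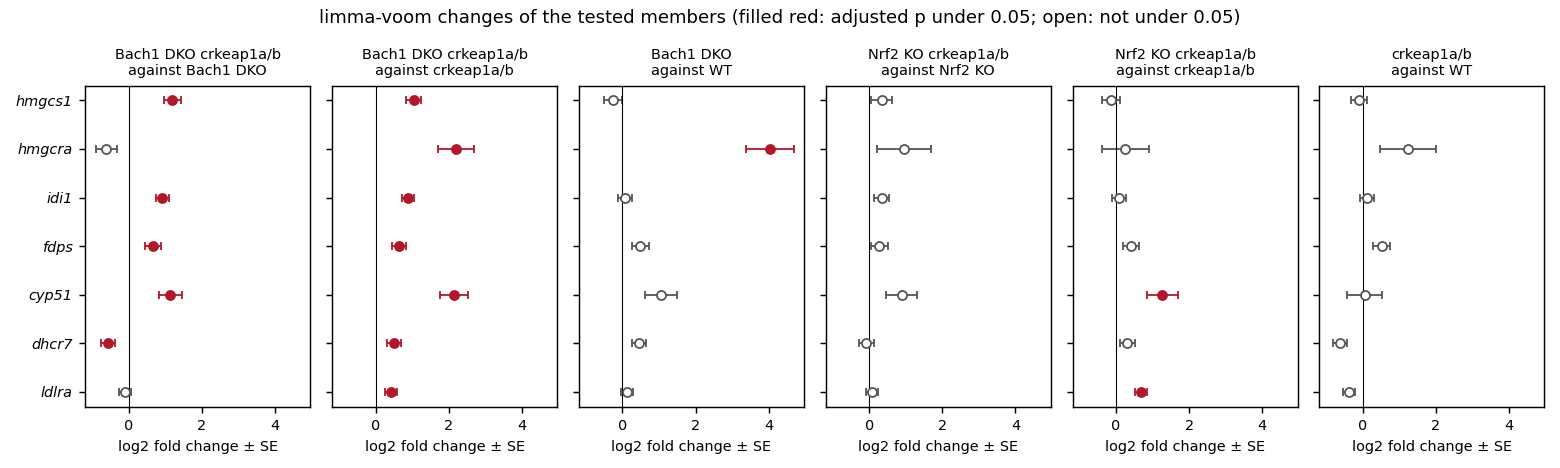
Log2 fold change (horizontal axis, 0 marks no difference) with SE bars for the 7 tested genes in 6 comparisons. Red filled points passed an adjusted p of 0.05. In Bach1 DKO crkeap1a/b against crkeap1a/b all 7 points lie to the right of 0, and against Bach1 DKO 4 of the called points lie right and dhcr7 lies left.

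Bach1 loss alone and Nrf2 loss alone gave few member calls. With so few members tested, these counts do not set the members apart from all rows. Against WT, Bach1 DKO larvae had 0 of the 6 members other than hmgcra called (background: 11.8% higher, 11.5% lower). Their median log2 fold change was 0.29, beside 0.01 over all rows. hmgcra was called higher but, with the limit of the filter given above, is not counted with them. In the same comparison cyp51 was called by edgeR (adjusted p = 0.048) and dhcr7 with quality weights (adjusted p = 0.0333). msmo1 was called in the fit without the filter (adjusted p = 0.000218). Against WT, Nrf2 KO larvae had 0 of 7 called by limma-voom (background: 16.1%, of which 8.51% higher and 7.55% lower), with 2 at an unadjusted p under 0.05 and 0 called by edgeR or DESeq2. fdps in that comparison had a log2 fold change of 0.64 ± 0.24 (adjusted p = 0.0659) and hmgcs1 of -0.58 ± 0.27 (adjusted p = 0.135). Within the Nrf2 KO line, adding the crkeap1a/b edits called 0 of 7 (background: 0.784%), with 1 at an unadjusted p under 0.05, cyp51, and 0 by edgeR or DESeq2. The cyp51 value was 0.88 ± 0.43 (limma-voom adjusted p = 0.381). Its Nrf2 KO pools, at 2.54, 2.69, 2.73 and 2.12 CPM, lay below all Nrf2 KO crkeap1a/b pools. Nrf2 KO crkeap1a/b against crkeap1a/b called 2 of 7 higher, cyp51 and ldlra (background: 13.0% higher, 11.1% lower). There cyp51 had 5.23, 7.00, 3.86 and 3.47 CPM in Nrf2 KO crkeap1a/b pools, all above the crkeap1a/b pools, for 1.26 ± 0.43 (adjusted p = 0.0275). It lost the call without crkeap1a/b replicate 2, 3 or 4 or Nrf2 KO crkeap1a/b replicate 1 or 2 (adjusted p = 0.0543 to 0.115). Scaling by library totals alone moved the median of all rows in that pair by -0.31, and with it neither cyp51 (0.94, adjusted p = 0.0725) nor ldlra (0.38, adjusted p = 0.161) was called. msmo1 was called higher there in the fit without the filter (2.68 ± 0.73, adjusted p = 0.00683; 12.1% of rows higher).

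Among larvae without a mutant background, crkeap1a/b against WT called 0 of 7 members (background: 5.26%), with 3 at an unadjusted p under 0.05 and 1 called by edgeR and by DESeq2, dhcr7 in each case. dhcr7 was lower in all 4 crkeap1a/b pools than in any WT pool (log2 fold change -0.63 ± 0.20, adjusted p = 0.0514). The single crispants had higher group means of that gene than WT. crkeap1b pools had 54.1, 40.8, 46.9 and 63.9 CPM and crkeap1a pools 32.6, 55.0, 67.7 and 39.5 CPM. In crkeap1b larvae against WT, 1 of 7 members was called higher, dhcr7 (0.63 ± 0.19, adjusted p = 0.0175; background 9.73% higher), and 1 lower, hmgcs1 (-1.02 ± 0.30, adjusted p = 0.0181; background 8.10% lower). With crkeap1b pools 1, 3 and 4 left out, which leaves 1 pool assumed to vary like the others, neither was called (dhcr7 0.33, adjusted p = 0.871 and hmgcs1 -0.88, adjusted p = 0.714). Scaling by library totals alone moved the median of all rows by -0.45 in this pair and left dhcr7 at 0.20 (adjusted p = 0.367). dhcr7 was also lost without WT replicate 1 (0.51, adjusted p = 0.0702) and without crkeap1b replicate 4 (0.53, adjusted p = 0.0923), and hmgcs1 without crkeap1b replicate 3 (-0.83, adjusted p = 0.092) or 4 (-0.89, adjusted p = 0.0789). crkeap1a larvae called 0 of 7 (background: 13.1%), with 1 at an unadjusted p under 0.05 and 1 called by edgeR and by DESeq2, dhcr7 in each case. Its log2 fold change there was 0.52 (adjusted p = 0.0553), and without crkeap1a pools 2 and 3 it was 0.15 (adjusted p = 0.844), with 0 of 7 members called. Marker sums moved with these groups: skeletal muscle markers summed to 31110 to 68380 CPM in crkeap1b pools and 30600 to 51740 CPM in crkeap1a pools, against 19420 to 21960 CPM in WT pools, and their part in the dhcr7 and hmgcs1 results was not tested.

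Tests of the difference itself gave 3 calls of 7 for keap1a with keap1b editing, near the share of all rows (background: 38.0%). The largest was in dhcr7 at -1.79 ± 0.27 (adjusted p = 4.9e-06). hmgcs1 gave 1.32 ± 0.40 (adjusted p = 0.00852) and idi1 -0.69 ± 0.27 (adjusted p = 0.037). A value away from 0 in that test means that both edits together differ from the sum of the single effects. Of these, the hmgcs1 value was not called without crkeap1b pools 1, 3 and 4 (1.18, adjusted p = 0.167), and idi1 was not called in 5 alternatives, among them library totals alone (-0.03, adjusted p = 0.934), without crkeap1a pools 2 and 3 (-0.49, adjusted p = 0.243) and without crkeap1b pools 1, 3 and 4 (-0.43, adjusted p = 0.452). dhcr7 stayed called without either set of pools (up to adjusted p = 0.00493). idi1 was also not called without WT replicate 1, 2 or 4, crkeap1a replicate 2 or 3, crkeap1b replicate 4 or crkeap1a/b replicate 2 or 3 (adjusted p = 0.05 to 0.119). For crkeap1a/b editing with the Bach1 DKO background 1 of 7 was called, hmgcs1, with the values given above (background: 2.71%). Not called there were idi1 (0.80 ± 0.26, limma-voom adjusted p = 0.0836), fdps (0.15 ± 0.32, adjusted p = 0.851) and cyp51 (1.09 ± 0.585, adjusted p = 0.338). Of these, idi1 was called with quality weights (adjusted p = 0.0259) and in a fit to the compared groups (adjusted p = 0.0298). With the Nrf2 KO background 0 of 7 were called (background: 1.11%), with 0 at an unadjusted p under 0.05 and 0 by edgeR and DESeq2.

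In bulk samples, fewer cells of a type and less RNA per cell cannot be told apart, and tissue markers moved between the Bach1 DKO groups. In that pair, 11.2% of all rows tested were called lower and 13.5% higher. Skeletal muscle markers fell in 9 of 9 tested genes, with sums of 8556 to 10200 CPM in Bach1 DKO crkeap1a/b pools and 20970 to 23620 CPM in Bach1 DKO pools. Exocrine pancreas markers fell in 10 of 10, with sums of 4158 to 5685 CPM in Bach1 DKO crkeap1a/b pools and 10270 to 10770 CPM in Bach1 DKO pools. Liver markers, from the tissue where synthesis is known to be high, rose in 5 of 14 and fell in 1, with sums of 1659 to 2185 CPM in Bach1 DKO crkeap1a/b pools and 1691 to 1804 CPM in Bach1 DKO pools. Mean sums in Bach1 DKO crkeap1a/b and Bach1 DKO pools were 283.6 and 1287 CPM for skin markers and 139.5 and 216.3 CPM for glia. They were 1859 and 2456 CPM for neurons and 710.5 and 887.8 CPM for enterocytes. For 2 markers of steroid-producing glands they were 8.79 and 6.03 CPM, with overlapping pools. The part of these tissue shifts in the members' levels was not tested.

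Other enzymes of the pathway also rose in Bach1 DKO crkeap1a/b larvae. Of 18 listed, 10 were in the table and tested, and 6 rose in Bach1 DKO crkeap1a/b against Bach1 DKO with the other 4 not called (background as for the members there, 13.5% higher and 11.2% lower; median 0.92, all rows -0.05). acat2, whose product is the thiolase that supplies acetoacetyl-CoA to hmgcs1, had 24.8, 28.2, 22.4 and 25.2 CPM in Bach1 DKO crkeap1a/b pools, 1.79, 3.75, 5.47 and 3.37 CPM in Bach1 DKO pools, 13.1, 17.0, 13.1 and 14.4 CPM in crkeap1a/b pools, and 3.22, 5.25, 4.84 and 4.86 CPM in WT pools. It was high in both groups with crkeap1a/b edits and intact Nrf2, and it lay near WT in Nrf2 KO crkeap1a/b pools, at 2.75, 3.89, 4.41 and 4.01 CPM. Its log2 fold change was 2.86 ± 0.25 in Bach1 DKO crkeap1a/b over Bach1 DKO (adjusted p = 2.78e-11), 1.66 ± 0.22 in crkeap1a/b over WT (adjusted p = 1.41e-06) and -1.91 ± 0.26 in Nrf2 KO crkeap1a/b over crkeap1a/b (adjusted p = 6.34e-07). The others that rose were mvda, the mevalonate diphosphate decarboxylase (1.99 ± 0.40), erg28, a sterol enzyme scaffold (1.40 ± 0.39), hsd17b7, a sterol ketone reductase (1.21 ± 0.35), sc5d, a sterol desaturase (1.05 ± 0.19) and ebp, a sterol isomerase (0.79 ± 0.26). All except acat2 and ebp were named after their values were seen, and ebp was not called with edgeR (adjusted p = 0.0596) or without Bach1 DKO replicate 2 (adjusted p = 0.0778) or Bach1 DKO crkeap1a/b replicate 4 (adjusted p = 0.0554). ggps1, which makes the geranylgeranyl chain for protein prenylation rather than sterol, was lower in Bach1 DKO crkeap1a/b than in crkeap1a/b (-0.45 ± 0.13, adjusted p = 0.00868), with overlapping pools, and this call was lost without Bach1 DKO crkeap1a/b replicate 2 (-0.345, adjusted p = 0.065). Of the same 10 enzymes, 6 rose and 1 fell in Bach1 DKO crkeap1a/b against crkeap1a/b (background: 15.8% and 14.0%). Of those 6, nsdhl, a sterol dehydrogenase gene named after its values were seen, was not called by edgeR (adjusted p = 0.169) or DESeq2 (adjusted p = 0.159) nor without crkeap1a/b replicate 1 or 4 (up to adjusted p = 0.0883), and hsd17b7 was not called with a replicate block (0.80, adjusted p = 0.0688), in a fit to the compared groups (adjusted p = 0.0784) or without crkeap1a/b replicate 1, 3 or 4 or Bach1 DKO crkeap1a/b replicate 3 or 4 (up to adjusted p = 0.198). Beside the share of all rows called in the same direction, 1 fell in Bach1 DKO against WT (11.5% of rows), 1, acat2, rose in crkeap1a/b against WT (3.36%), 2 fell in Nrf2 KO crkeap1a/b against crkeap1a/b (11.1%), and 1 rose and 1 fell in crkeap1b against WT (9.73% and 8.10%). Neither of the last pair, hmgcrb and ebp, was called without crkeap1b pools 1, 3 and 4 (adjusted p = 0.802 and 0.96).

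**Figure D3:**
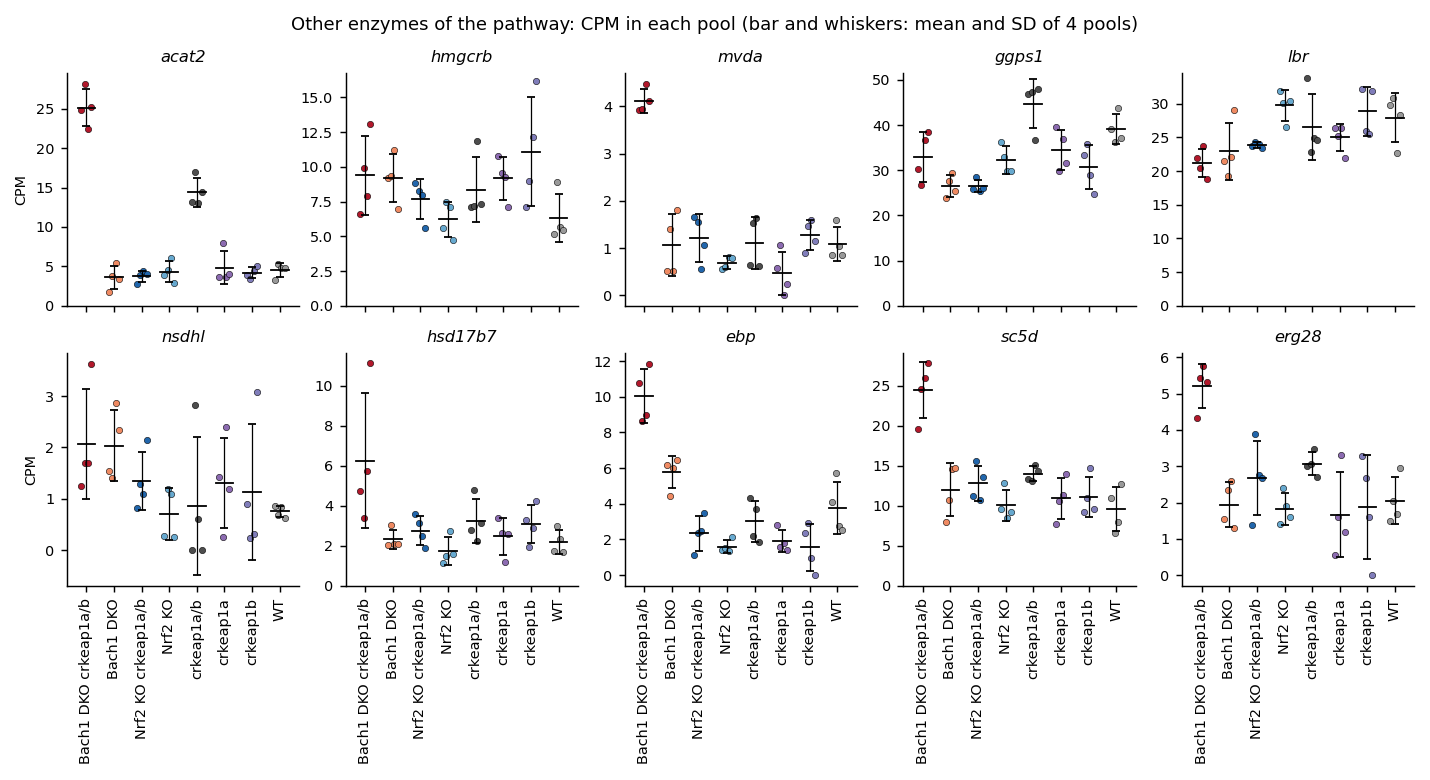
Level in CPM (vertical axis) of the other 10 pathway enzymes in each pool by group (horizontal axis). Points are pools and the bar and whiskers are the mean and SD of 4 pools. acat2, mvda, ebp, sc5d and erg28 in Bach1 DKO crkeap1a/b pools lie above the other groups, while lbr and ggps1 do not.

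Among 17 tested genes that control synthesis and uptake, 5 rose in Bach1 DKO crkeap1a/b against Bach1 DKO and the other 12 were not called (background: 13.5% higher). srebf2, the factor that switches the pathway on, averaged 44.7 ± 3.43 CPM in Bach1 DKO crkeap1a/b and 32.6 ± 1.57 CPM in Bach1 DKO (0.45 ± 0.14, adjusted p = 0.0169). The other 4, named after their values were seen, were mbtps2, a protease that frees SREBP (0.82 ± 0.17, adjusted p = 0.000493), ldlrb (1.04 ± 0.35, adjusted p = 0.0245), insig2 (0.39 ± 0.13, adjusted p = 0.024) and ldlrap1b, an LDL receptor adaptor (0.92 ± 0.32, adjusted p = 0.0329). insig2 lost its call without Bach1 DKO replicate 1 or 4 or Bach1 DKO crkeap1a/b replicate 1 (up to adjusted p = 0.0715), and ldlrb without Bach1 DKO replicate 2 or 4 (up to adjusted p = 0.0562). ldlrap1b lost its call with a replicate block (0.88, adjusted p = 0.0514) and without Bach1 DKO replicate 1 or 3 or Bach1 DKO crkeap1a/b replicate 2 (up to adjusted p = 0.151). In Nrf2 KO crkeap1a/b against crkeap1a/b, 1 of the 17 was called higher and 4 lower (background: 13.0% and 11.1%), and srebf2 was one of the lower ones, at -0.72 ± 0.15 (adjusted p = 0.00047).

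Of 13 tested genes of cholesterol transport, storage and breakdown, 6 rose and 2 fell in Bach1 DKO crkeap1a/b against Bach1 DKO (background: 13.5% and 11.2%). npc1 and npc2.1, which carry cholesterol out of lysosomes, rose by 0.66 ± 0.22 (adjusted p = 0.0241) and 0.88 ± 0.20 (adjusted p = 0.00149). npc2.1 averaged 49.6 ± 3.43 CPM in Bach1 DKO crkeap1a/b and 27.0 ± 4.00 CPM in Bach1 DKO, and npc1 was not called without Bach1 DKO replicate 1 or 4 or Bach1 DKO crkeap1a/b replicate 4 (up to adjusted p = 0.0563). soat2, which esterifies cholesterol for storage, rose by 1.00 ± 0.28 (adjusted p = 0.00866), and abca1a, which exports it, by 0.54 ± 0.12 (adjusted p = 0.00115). star, the mitochondrial cholesterol carrier, gave 0.82 ± 0.30 (adjusted p = 0.0426) and was not called under edgeR, DESeq2, no filter or a replicate block (0.76, adjusted p = 0.102; up to adjusted p = 0.129 over these), nor without Bach1 DKO replicate 1, 2 or 3 or Bach1 DKO crkeap1a/b replicate 2 or 3 (up to adjusted p = 0.192). cyp7a1, the rate-limiting enzyme of bile acid synthesis, fell to 7.66, 1.88, 2.98 and 3.39 CPM in Bach1 DKO crkeap1a/b pools, against 37.1, 19.9, 54.4 and 58.8 CPM in Bach1 DKO pools (-3.46 ± 0.49, adjusted p = 1.13e-06). No pools overlapped. scarb1, a lipoprotein receptor, fell by 1.05 ± 0.24 on the log2 scale (adjusted p = 0.000938), and lcat, which esterifies cholesterol in plasma, rose by 0.89 ± 0.22 (adjusted p = 0.00212), named after its value was seen.

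**Figure D4:**
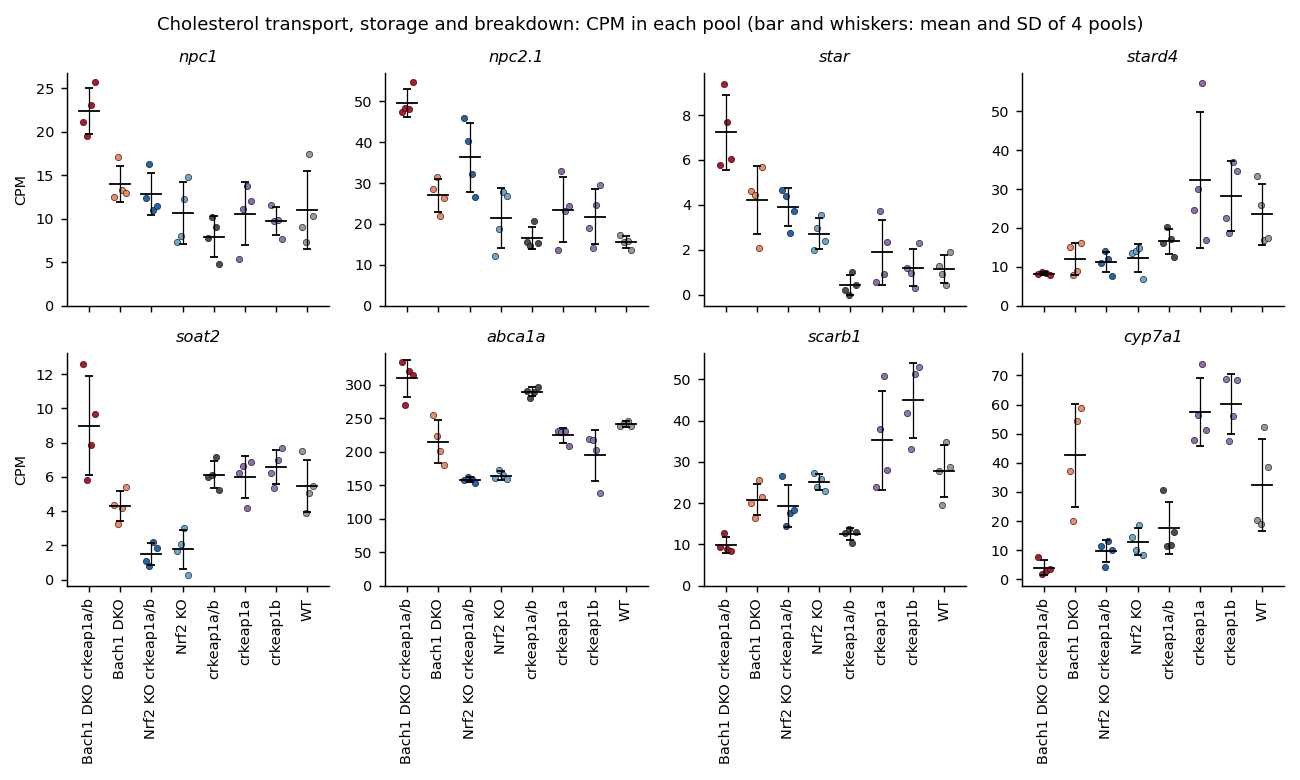
Level in CPM (vertical axis) of 8 genes of cholesterol transport, storage and breakdown in each pool by group (horizontal axis). Points are pools and the bar and whiskers are the mean and SD of 4 pools. npc1 and npc2.1 are highest in Bach1 DKO crkeap1a/b pools, and cyp7a1 has its lowest group mean there.

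The members did not all follow one another. Over the 32 libraries, the correlation of log2 CPM with the mean of the other synthesis members was 0.77 for cyp51, 0.71 for msmo1, 0.70 for lss, 0.63 for sqlea, 0.62 for hmgcs1, 0.60 for hmgcra, 0.55 for idi1 and 0.49 for fdps. It was 0.13 for ldlra and -0.13 for dhcr7. Within groups it ran from -0.23 to 0.46, and the libraries share their groups, so these values describe mainly group differences. Tested rows with a symbol and outside every pathway and marker list used here were ranked by correlation with the mean of the synthesis members. The 5 that followed it best over the same 32 libraries were a predicted gene known only by a zmp project number (r = 0.92), cygb1 (0.89), eif4a1a (0.88), vps4b (0.88) and cdc42 (0.88). cygb1, a cytoglobin, averaged 237.5 ± 2.35 CPM with both changes, 108.5 ± 13.5 CPM with Bach1 loss alone, 72.6 ± 9.19 CPM in crkeap1a/b pools and 72.3 ± 3.65 CPM in WT pools (SD, n = 4 each). Within groups these 5 correlations were 0.28, 0.04, 0.57, 0.25 and 0.53.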

How the data were processed

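The data were 1 table of raw counts for 32 libraries, deposited by the authors. Per the labels, submitters' processing notes name FastQC 0.72, cutadapt 1.16, STAR 2.7.5b, featureCounts 1.6.3 and limma 3.40.6 with genome build danRer11. Handling of multi-mapped reads, use of strand and the rule for keeping rows are not given in the sources used here. Of 16825 rows, 786 had no identifier, and of the other 16039, 15617 matched a symbol and 422 did not. No column was left unmapped. 1 row without an identifier held 28.0% to 40.6% of counts in each library and was kept. Rows were filtered with filterByExpr (minimum count 10, 2.47 CPM), leaving 14660. R 4.3.3, limma 3.58.1, edgeR 4.0.16 and DESeq2 1.42.0 were used. One limma-voom fit of 8 group means (24 residual and 12.6 prior degrees of freedom) gave 9 pairwise comparisons and 3 interactions, with Benjamini-Hochberg adjustment within each and a threshold of 0.05. CPM used a prior count of 2 on the log2 scale only. Every library pair within a group differed by more than sampling noise (chi-square over degrees of freedom at least 1.75). Pools of one group are separate pools of larvae, so p-values measure the spread between pools only. Without molecular identifiers, counting intervals and the floor of 3 counts cover counting error only.

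The members, lists and tests were chosen with earlier results of these data known. Named genes were the members, genes of the pathway lists called in at least 3 of 9 pairwise comparisons (at most 15), the 5 rows most correlated with the members and the edited genes. Those 5 were sought only among tested rows with a symbol and outside the pathway and marker lists. Each exception is named as such. Pairing by replicate number was checked: in no comparison did every same-numbered pair correlate above 0.1, and the main fit left the numbers out. In Bach1 DKO crkeap1a/b against Bach1 DKO, same-numbered pairs correlated from 0.0842 to 0.162 (mean 0.136, other pairs -0.0452). Pairing by number in these groups was therefore not excluded. Alternatives were edgeR, DESeq2, other scalings, no filter, quality weights, a fit to the compared groups, a replicate block and each pool left out. The fit was tested on simulated data. Promoter and protein sequences were not analysed here.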

Additional observations from a re-analysis of the deposited data

Results flagged for a closer look

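Of 80 sets of 4 pools for the members, 3 were at 0 throughout and 11 had counts in 1 pool only, which sets that pool apart by construction. Of the other 66 sets, 6 had 1 pool far from the other 3, where chance alone gives about 1 in 20. For hmgcs1 WT replicate 4 had 6.12 CPM, for idi1 crkeap1b replicate 4 had 31.9 CPM, for fdps Bach1 DKO replicate 2 had 8.90 CPM, for ldlra Bach1 DKO replicate 4 had 18.1 CPM, and for msmo1 Bach1 DKO crkeap1a/b replicate 4 had 4.36 CPM. For sqlea, Bach1 DKO crkeap1a/b replicate 1 had 0.828 CPM. The 11 sets with counts in 1 pool were sqlea in crkeap1a replicate 3 (0.599 CPM), crkeap1b replicate 3 (0.638), Nrf2 KO replicate 4 (0.265) and Nrf2 KO crkeap1a/b replicate 2 (0.519), lss in crkeap1a replicate 1 (0.568), Bach1 DKO replicate 2 (0.234), Nrf2 KO replicate 3 (0.273) and Nrf2 KO crkeap1a/b replicate 1 (0.275), and msmo1 in WT replicate 3 (0.210), crkeap1a replicate 3 (0.2997) and crkeap1a/b replicate 1 (0.215).

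Among the members and the pathway-list genes named by the rule above, effects that differed between backgrounds or edits by a limma-voom interaction were, for keap1a with keap1b editing, hmgcs1 1.32, idi1 -0.69, dhcr7 -1.79, acat2 1.74, ggps1 0.72, ebp 2.095, stard4 -1.06, npc2.1 -0.86, abca1a 0.70, scarb1 -2.12 and cyp7a1 -2.79 (log2 scale). For crkeap1a/b editing with the Bach1 DKO background they were hmgcs1 1.30, acat2 1.2 and cyp7a1 -2.58, and with the Nrf2 KO background acat2 -1.83. Of all rows tested, 38.0% were called for both edits, 2.71% for the Bach1 DKO background and 1.11% for the Nrf2 KO background. A call for both edits was thus common among all rows. Outside that rule, hmgcrb (lower) and lcat (higher) were also called for both edits. hmgcrb lost the call in many settings, among them quality weights (-0.85, adjusted p = 0.0991) and library totals (-0.225, adjusted p = 0.605). Under the alternatives and with single pools left out, the dhcr7, acat2, scarb1 and cyp7a1 values for both edits, cyp7a1 for the Bach1 DKO background and acat2 for the Nrf2 KO background stayed called. For both edits, calls ended without crkeap1b pools 1, 3 and 4 for hmgcs1 (1.18, adjusted p = 0.167), idi1 (-0.43, adjusted p = 0.452), ggps1 (0.51, adjusted p = 0.193), ebp (0.86, adjusted p = 0.465), stard4 (-0.54, adjusted p = 0.554), npc2.1 (-0.32, adjusted p = 0.722) and abca1a (0.51, adjusted p = 0.0633). Those of idi1 (-0.49, adjusted p = 0.243), ebp (2.01, adjusted p = 0.0572), stard4 (-0.56, adjusted p = 0.297) and npc2.1 (-0.57, adjusted p = 0.27) also ended without crkeap1a pools 2 and 3. With library totals alone stard4 was -0.40 (adjusted p = 0.349) and npc2.1 -0.19 (adjusted p = 0.641), and leaving out a single pool ended the call in 8 of 16 cases for idi1, 1 for ebp, 6 for stard4 and 12 for npc2.1 (up to adjusted p = 0.138). The acat2 value for the Bach1 DKO background was not called with edgeR (adjusted p = 0.0692), library totals (adjusted p = 0.0517) or no filter (adjusted p = 0.0506), nor in 12 of 16 cases with a single pool left out (up to adjusted p = 0.142), and hmgcs1 there was lost without crkeap1a/b replicate 4 (adjusted p = 0.054).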

How the results depend on the processing

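Of 3230 alternative values for single genes, 2885 stayed on their side of the threshold and, where not called, within 1 SE, 268 lost the call, 33 gained it, 43 uncalled values moved by more than 1 SE, and 1 reversed with a call. Of the 2885 and the 43, 56 and 15 values changed sign, all for genes not called in either setting, such as hmgcra in Nrf2 KO against WT (0.53, and -0.70 with edgeR). In the reversed case the ldlra interaction of keap1a with keap1b editing was -0.04, and 0.73 with scaling by library totals alone. That scaling shifted the median of all rows by -0.23 (crkeap1a), -0.45 (crkeap1b), -0.24 (Nrf2 KO), each against WT, by -0.31 (Nrf2 KO crkeap1a/b against crkeap1a/b) and by 0.71 (interaction of both edits), and moved the share of higher calls to 16.4%, 8.28%, 19.0%, 19.9% and 86.8%, from 46.6%, 54.5%, 53.0%, 53.9% and 51.1%; other scalings moved medians by at most 0.03.

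Members called in crkeap1a against WT were 0, and 1 with edgeR, DESeq2 or a replicate block (0 to 1 over pools left out). In crkeap1b against WT they were 2, and 0 in a fit to the compared groups or without pools 1, 3 and 4 (0 to 4). In crkeap1a/b against WT they were 0, and 1 with edgeR, DESeq2, quality weights, library totals, a replicate block or the fit to the compared groups (0 to 1). In Bach1 DKO against WT they were 1, and 2 with edgeR, DESeq2, library totals, no filter or the compared groups and 3 with quality weights (1 to 2). In Bach1 DKO crkeap1a/b against Bach1 DKO they were 5, and 4 with edgeR (3 to 5 over pools left out), and quality weights or the compared groups added hmgcra as lower. Against crkeap1a/b they were 7, and with other tools 5 by edgeR and 6 by DESeq2 (4 to 6 over pools left out). These counts against crkeap1a/b, and those for Bach1 DKO against WT, include hmgcra. In Nrf2 KO against WT they were 0, and 2 with library totals (0 to 1), and in Nrf2 KO crkeap1a/b against crkeap1a/b 2, and 0 with library totals (1 to 2). For the interaction of both edits they were 3, and 1 without crkeap1b pools 1, 3 and 4 (2 to 3), and for that with Bach1 DKO 1, and 2 with quality weights or the compared groups (0 to 1). Same-numbered pairs correlated from -0.13 to 0.16, and the replicate block changed 8 of 171 gene calls. Leaving out crkeap1a pools 2 and 3, or crkeap1b pools 1, 3 and 4, was chosen after seeing the data. All rows called changed by over 1.5 times in these cases: crkeap1a 1926, against 1207 with quality weights, 386 in the compared groups, 69 without pools 2 and 3, and 607 to 2867 over pools left out; crkeap1b 2614, against 5469 with library totals, 415 in the compared groups, 0 without pools 1, 3 and 4, and 1057 to 4417; Bach1 DKO crkeap1a/b over Bach1 DKO 3614, against 5470 with quality weights; Nrf2 KO crkeap1a/b over Nrf2 KO 115, against 238 with DESeq2, 614 with weights and 739 in the compared groups (59 to 103); both edits 5571, against 3229 and 1134 without those pools; the Bach1 DKO interaction 398, against 877 with weights and 1005 in the compared groups (196 to 453); and the Nrf2 KO interaction 163, against 300 and 393. Low counts limit sqlea, lss and msmo1, for which 3 counts were the floor. The cause of these changes was not tested.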

Other observations

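In Nrf2 KO larvae against WT, some genes of cholesterol handling were called. No synthesis member was called in the main fit, but the lists were not compared by a test. Of 13 tested genes of transport, storage and breakdown, 5 fell and 0 rose in Nrf2 KO larvae against WT (7.55% of all rows called lower, 8.51% higher): soat2 (-1.89 ± 0.45, adjusted p = 0.00312), abca1a (-0.55 ± 0.12, adjusted p = 0.00126), the lipoprotein receptor genes lrp1aa (-0.57 ± 0.13, adjusted p = 0.00219) and lrp1ab (-0.97 ± 0.16, adjusted p = 3.8e-05), and cyp7a1 (-1.26 ± 0.37, adjusted p = 0.0156). The cyp7a1 call was lost without WT replicate 3 (-0.996, adjusted p = 0.0656) or Nrf2 KO replicate 4 (-1.07, adjusted p = 0.0704). Of 17 genes that control synthesis and uptake, 2 were lower, srebf2 (-0.62 ± 0.15, adjusted p = 0.00369) and stard4 (-0.93 ± 0.31, adjusted p = 0.0327), and 2 were higher, ldlrap1a (0.82 ± 0.26, adjusted p = 0.0235) and amfrb (1.72 ± 0.53, adjusted p = 0.0227, named after its value was seen). The stard4 call was lost without WT replicate 1 or 2 or Nrf2 KO replicate 4 (up to adjusted p = 0.169). That of ldlrap1a was lost with library totals (0.58, adjusted p = 0.11), in a fit to the compared groups (adjusted p = 0.0632) and without WT replicate 1, 2 or 4 or Nrf2 KO replicate 3 or 4 (up to adjusted p = 0.106). All 4 Nrf2 KO pools lay below all 4 WT pools for soat2, abca1a, lrp1aa, lrp1ab, cyp7a1, srebf2 and stard4. These are the genes called lower above, so the separation is not further evidence, and its share over all rows was not counted. With scaling by library totals alone, the median of all rows in that pair shifted by -0.24. Under that scaling the members hmgcs1 (-0.83, adjusted p = 0.0259) and dhcr7 (-0.49, adjusted p = 0.0457) were called lower. Without WT replicate 1, fdps was called higher (0.86, adjusted p = 0.0247).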
